A study of Mus musculus with 6 samples.

Results

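The genes described here encode the 5 subunits of the vacuolar H+-ATPase (V-ATPase), named B, C, G, d and a, that have an isoform of proton-secreting cells beside a ubiquitous isoform. The 10 genes were taken by symbol from the gene count table, in which 57127 genes are listed, and all 10 were abundant enough to be tested. The isoforms of proton-secreting cells are Atp6v1b1, Atp6v1c2, Atp6v1g3, Atp6v0d2 and Atp6v0a4, and their ubiquitous counterparts are Atp6v1b2, Atp6v1c1, Atp6v1g1, Atp6v0d1 and Atp6v0a1. RNA of the whole epididymis was sequenced from adult wild-type (WT) mice and adult mice lacking the tight junction protein occludin (genotype Ocln-/-, Ocln-KO), all of the C57BL/6 strain, in 3 libraries of each genotype. The Ocln-KO males came from heterozygous matings and carry the deletion in the whole animal, so the comparison is not limited to a cell type of the epididymis. The study asked which transcripts differ in the epididymis without occludin, and its methods do not state outright whether a library holds the RNA of 1 mouse, so p-values measure the spread between libraries.

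The V-ATPase is a proton pump built of a cytoplasmic part, V1, which hydrolyses ATP, and a membrane part, V0, through which protons cross. In most cells it acidifies lysosomes, endosomes and other internal compartments. Clear cells of the epididymis, like the intercalated cells of the kidney collecting duct, also place it in the apical membrane, where it acidifies the lumen, and they assemble it with isoforms that most other cells do not use. The subunits B, C and G belong to V1, and the subunits d and a belong to V0. Some of these isoforms are also made elsewhere, as is Atp6v0d2 in osteoclasts and macrophages.

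RefSeq promoter sequences of GRCm38.p6 were found for 6 of the 10 genes. Of these, 3 are shown, from 250 bases before the start site to 30 bases from it on: the promoters of Atp6v1b1 and Atp6v0a4, isoforms whose transcripts fell in Ocln-KO, and that of Atp6v0d1, a ubiquitous isoform whose transcript did not pass the test. They lie at chr6:83742767-83743046 on the plus strand, chr6:38124557-38124836 on the minus strand and chr8:105566035-105566314 on the minus strand. Capitals mark the forkhead core TGTTTA, the kind of motif read by the clear cell transcription factor Foxi1, or the palindrome CACGTG at the centre of the element read by the lysosomal regulator TFEB.
Atp6v1b1: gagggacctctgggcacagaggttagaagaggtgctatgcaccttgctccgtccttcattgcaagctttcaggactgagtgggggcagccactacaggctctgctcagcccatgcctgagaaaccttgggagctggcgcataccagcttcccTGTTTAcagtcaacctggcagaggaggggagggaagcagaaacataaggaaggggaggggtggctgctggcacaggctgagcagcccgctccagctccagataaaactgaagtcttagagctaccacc
Atp6v0a4: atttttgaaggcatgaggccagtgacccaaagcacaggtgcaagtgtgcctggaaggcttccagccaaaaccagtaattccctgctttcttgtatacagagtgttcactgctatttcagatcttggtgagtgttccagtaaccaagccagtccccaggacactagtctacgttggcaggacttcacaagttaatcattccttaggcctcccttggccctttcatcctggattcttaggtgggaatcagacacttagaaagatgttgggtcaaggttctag
Atp6v0d1: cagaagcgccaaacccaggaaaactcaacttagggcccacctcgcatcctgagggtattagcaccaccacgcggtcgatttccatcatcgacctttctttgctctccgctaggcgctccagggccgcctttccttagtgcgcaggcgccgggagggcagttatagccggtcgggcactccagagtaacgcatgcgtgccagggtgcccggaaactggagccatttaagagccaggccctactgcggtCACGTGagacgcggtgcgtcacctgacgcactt
The window of Atp6v1b1 held 1 forkhead core, 98 bases before the start site, and that of Atp6v0d1 held 1 CACGTG, 3 bases before it. Neither run of letters, searched on both strands, occurred in the windows of Atp6v0a4, Atp6v0a1, Atp6v1c2 and Atp6v1g3. The windows of Atp6v0a1 and Atp6v1c2 belong to start sites inside the gene, so the outermost starts were not searched. These sites are at 101010398 where Atp6v0a1 begins at 101009422, and at 17324730 where Atp6v1c2, on the minus strand, begins at 17325386. Over all 32851 promoters of the table, 12.9% held TGTTTA and 6.79% held CACGTG. These matches describe letters, and the motifs were chosen with the sequences in view.

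The libraries held between 30646424 and 38870780 counts, so that 1 count equals between 0.0267 and 0.0314 CPM, the depth-scaled unit used here, and the lowest count of any of the 10 genes in any library was 163. The sample records give whole epididymis as the tissue, while their extraction text names prefrontal cortex, and the epididymal transcript Crisp1 was at 4439 CPM or more in each library. Ocln was at 85.9, 78.8 and 91.8 CPM in WT and at 15.1, 15.3 and 14.9 CPM in Ocln-KO. On the first principal component, Ocln-KO replicate 3 lay farther from the other Ocln-KO libraries (-80.6 against -17.6 and -28.7), and values are given without it where it decided a result.

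All 10 isoform transcripts had a log2 fold change below 0 in Ocln-KO against WT, where 49.1% of the 19691 tested genes did. With the quasi-likelihood test of edgeR, adjusted over all tested genes by the Benjamini-Hochberg method, 3 of the 10 were lower at an adjusted p under 0.05, as were 5.04% of tested genes, and 0 were higher, as were 3.91%. None was higher at an unadjusted p under 0.05 or by DESeq2 or limma-voom either. The 3 were Atp6v0d2, Atp6v0a4 and Atp6v1b1, all of the proton-secreting-cell side. The first 2 also had a fold change under 0.5, as did 1.70% of tested genes. The median log2 fold change was -0.79 over the 5 proton-secreting-cell isoforms, -0.12 over the 5 ubiquitous isoforms and 0.01 over all tested genes. In 5 of 5 proton-secreting-cell isoforms and in 2 of 5 ubiquitous isoforms every Ocln-KO library lay under every WT library, as in 19.4% of tested genes, and in 0 of the 10 did every Ocln-KO library lie above every WT library, as in 16.9%. Of the ubiquitous isoforms 0 were called lower, with 1, Atp6v1g1, at an unadjusted p under 0.05 and 1 called by each of DESeq2 and limma-voom. None of the 10 passed when any 1 of the 3 WT libraries was left out, where 5 had an unadjusted p under 0.05 each time, and 3, 3 and 2 passed without Ocln-KO replicates 1, 2 and 3. Of all genes, 0.0935%, 0.714% and 0.197% were called lower without WT replicates 1, 2 and 3. Without Ocln-KO replicates 1, 2 and 3 these shares were 4.3%, 1.68% and 4.63%. The loss of calls without a WT library was thus not particular to the isoforms.

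**Figure D1:**
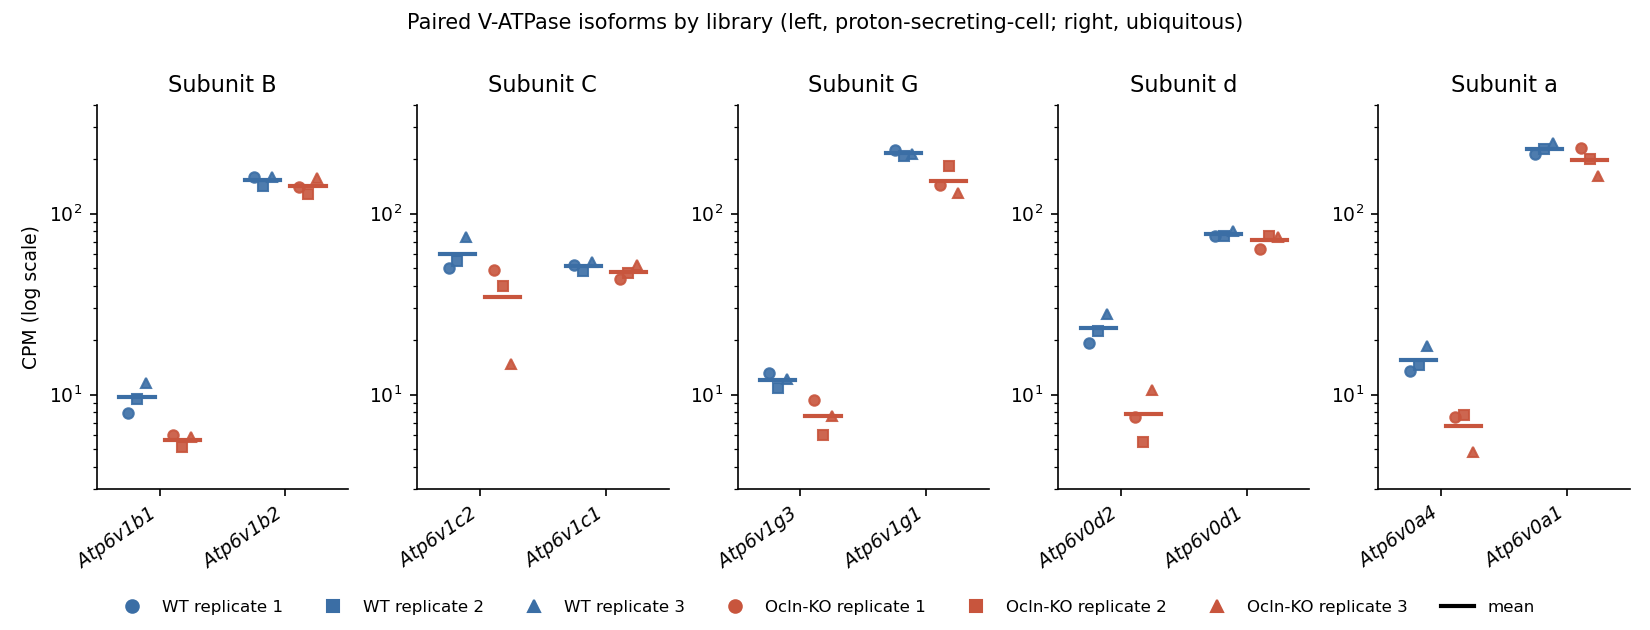
CPM of the 10 isoform transcripts on a log axis, with 1 panel per subunit, 1 point per library and a bar at the mean of each genotype; the proton-secreting-cell isoform stands left and the ubiquitous isoform right. The Ocln-KO points of Atp6v0d2, from 5.46 to 10.6 CPM, lie well under the WT points, from 19.3 to 27.9 CPM, while those of Atp6v1b2 and Atp6v1c1 overlap the WT points.

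The B subunit helps to bind ATP in V1, and its B1 isoform, encoded by Atp6v1b1 (chromosome 6, 83743017 to 83758855), is the isoform by which clear cells are commonly stained. Atp6v1b1 was at 7.97, 9.52 and 11.6 CPM in the WT libraries and at 5.98, 5.12 and 5.86 CPM in the Ocln-KO libraries. The Ocln-KO libraries lay close together and under the lowest WT library. Atp6v1b1 fell by 0.78 on the log2 scale (SE 0.19, adjusted p = 0.0458 in the edgeR fit), where SE is the standard error, and this call was lost with each library left out in turn (adjusted p from 0.0551 to 0.142), with limma-voom (0.054) and with scaling by total counts only (0.063). The ubiquitous B2 isoform, encoded by Atp6v1b2 (chromosome 8, 69088736 to 69113718), was at 159, 142 and 159 CPM in WT and at 141, 128 and 158 CPM in Ocln-KO. Its genotypes overlapped, and its log2 fold change was -0.11 (SE 0.10), with an adjusted p of 0.527 and a 95% interval of the difference in log2 CPM from -0.39 to 0.17.

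The C subunit is the arm that joins V1 to V0 and lets the complex come apart and reassemble. Its C2 isoform, encoded by Atp6v1c2 (chromosome 12, 17284721 to 17325386), was at 49.9, 54.7 and 74.2 CPM in WT and at 48.8, 39.99 and 14.7 CPM in Ocln-KO. The highest Ocln-KO library lay just under the lowest WT library, and Ocln-KO replicate 3 stood far under the others. The log2 fold change of Atp6v1c2 was -0.79 (SE 0.38, adjusted p = 0.216) and became -0.43 without Ocln-KO replicate 3 (adjusted p = 0.164). The 95% interval of its difference in log2 CPM, from -2.50 to 0.62, was the widest of the 10 transcripts. Atp6v1c1 (chromosome 15, 38661904 to 38692444), which encodes the ubiquitous C1 isoform, was at 52.1, 48.4 and 53.9 CPM in WT and at 43.4, 46.8 and 51.7 CPM in Ocln-KO. Its genotypes overlapped, with a log2 fold change of -0.12 (SE 0.10, adjusted p = 0.454), and Ocln-KO replicate 3 was the highest of its Ocln-KO libraries.

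The G subunit forms part of the peripheral stalks that hold V1 still against V0. Atp6v1g3 (chromosome 1, 138273738 to 138289462), which encodes the G3 isoform, was at 13.2, 10.9 and 12.2 CPM in WT and at 9.38, 5.99 and 7.61 CPM in Ocln-KO. No Ocln-KO library reached the lowest WT library, and the log2 fold change was -0.66 (SE 0.19, adjusted p = 0.0725). Atp6v1g3 passed the threshold with DESeq2 (0.0226) and without Ocln-KO replicate 1 (0.0452). Atp6v1g1 (chromosome 4, 63544765 to 63550701), which encodes the ubiquitous G1 isoform, was at 224, 208 and 213 CPM in WT and at 144, 182 and 130 CPM in Ocln-KO. Its genotypes did not overlap either, and its log2 fold change of -0.50 (SE 0.13, adjusted p = 0.0538) was the farthest from 0 among the ubiquitous isoforms. Atp6v1g1 passed the threshold with DESeq2 (0.0108), limma-voom (0.0450), no filter on low counts (0.0314) and without Ocln-KO replicate 2 (0.0345). The level of Atp6v1g1 is uncertain, because 31.5% of its transcript is at least 95% identical to 2 other annotated genes and how reads matching several loci were counted is not stated; no such match of 100 bases or more was found for the other 9 transcripts, nor between the isoforms of a pair.

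The d subunit joins the stalk of V1 to the ring of V0. Its d2 isoform, encoded by Atp6v0d2 (chromosome 4, 19876838 to 19922566), was at 19.3, 22.6 and 27.9 CPM in WT and at 7.51, 5.46 and 10.6 CPM in Ocln-KO. The genotypes stood clearly apart, and the highest Ocln-KO library was replicate 3. Atp6v0d2 fell by 1.56 on the log2 scale (SE 0.25, adjusted p = 0.0201), the largest fall of the 10, and 2.11% of all tested genes had a lower log2 fold change. Its adjusted p was over 0.05 without WT replicates 1, 2 or 3 (0.0778, 0.0600 and 0.0864) and was 0.00326 without Ocln-KO replicate 3. The ubiquitous d1 isoform, encoded by Atp6v0d1 (chromosome 8, 105524461 to 105566064), was at 75.2, 75.5 and 80.6 CPM in WT and at 64.2, 75.2 and 74.4 CPM in Ocln-KO. No Ocln-KO library reached the lowest WT library, but the lowest WT and the highest Ocln-KO library stood at 75.22 and 75.20 CPM, and the log2 fold change of -0.11 (SE 0.09, adjusted p = 0.463) did not pass the test.

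The a subunit holds the channels by which protons enter and leave the ring of V0 and directs the pump to its membrane. Its a4 isoform, encoded by Atp6v0a4 (chromosome 6, 38048483 to 38124586), was at 13.5, 14.5 and 18.6 CPM in WT and at 7.54, 7.72 and 4.82 CPM in Ocln-KO. Every Ocln-KO library lay under every WT library. Atp6v0a4 fell by 1.21 on the log2 scale (SE 0.22, adjusted p = 0.0245), and its adjusted p was over 0.05 without WT replicates 1, 2 or 3 (0.0940, 0.0657 and 0.0989). Annotated exons of Atp6v0a4 overlap those of D630045J12Rik on the same strand over 259 bases, 5.21% of its exonic length, so reads there could have been assigned to neither or either gene. The ubiquitous a1 isoform, encoded by Atp6v0a1 (chromosome 11, 101009422 to 101063719), was at 213, 227 and 244 CPM in WT and at 230, 199 and 162 CPM in Ocln-KO. Its genotypes overlapped, with Ocln-KO replicate 3 the lowest of the 6 libraries, and its log2 fold change was -0.21 (SE 0.13, adjusted p = 0.345).

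Whether the isoforms of a subunit differed unequally between genotypes was asked within each library, from the log2 ratio of the counts of the proton-secreting-cell isoform to those of the ubiquitous isoform. The scaling of the libraries does not enter this ratio. In 3 of the 5 pairs, B, d and a, every Ocln-KO library had a lower ratio than every WT library, and in the pairs C and G the genotypes overlapped. How often ratios of other gene pairs separate was not computed. Single transcripts separated in this way in 19.4% of tested genes, and upward in 16.9%. With 3 libraries against 3, the exact two-sided permutation test cannot give a p under 0.1, and over the 5 pairs the 3 that reached this smallest value had an adjusted p of 0.167. The median of the 5 differences was -0.81.

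The ratio of Atp6v0d2 to Atp6v0d1 was -1.962, -1.74 and -1.53 on the log2 scale in WT and -3.09, -3.78 and -2.81 in Ocln-KO. This was the largest shift, with a difference of -1.48 (Ocln-KO minus WT, 95% interval from -2.35 to -0.61, exact permutation p = 0.1). The ratio of Atp6v0a4 to Atp6v0a1 was -3.98, -3.97 and -3.71 in WT and -4.93, -4.69 and -5.07 in Ocln-KO. It differed by -1.01 with the narrowest interval of the 5, from -1.40 to -0.62 (exact permutation p = 0.1), and Ocln-KO replicate 3, low for both a isoforms, had the lowest ratio. The ratio of Atp6v1b1 to Atp6v1b2 was -4.32, -3.90 and -3.77 in WT and -4.56, -4.64 and -4.75 in Ocln-KO. The difference was -0.65 (95% interval from -1.13 to -0.17, exact permutation p = 0.1), and the genotypes stood apart although WT replicate 1 came near the Ocln-KO libraries. For these 3 pairs the difference lay below 0 with each library left out, between -1.69 and -1.20 for d, -1.11 and -0.92 for a and -0.81 and -0.54 for B.

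The ratio of Atp6v1c2 to Atp6v1c1 was -0.06, 0.17 and 0.46 in WT and 0.17, -0.23 and -1.81 in Ocln-KO. Its difference of -0.81 rested largely on Ocln-KO replicate 3 and became -0.22 without it; the 95% interval ran from -2.54 to 0.92 (exact permutation p = 0.2). The ratio of Atp6v1g3 to Atp6v1g1 was -4.08, -4.25 and -4.12 in WT and -3.94, -4.92 and -4.09 in Ocln-KO. Here the difference was -0.17 (95% interval from -1.03 to 0.70, exact permutation p = 0.9) and became 0.14 without Ocln-KO replicate 2. An unequal shift of G3 and G1 was thus not detected, but the interval includes a shift as large as that of the B pair. These intervals cannot show whether the pairs differed from each other, which was not tested.

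**Figure D2:**
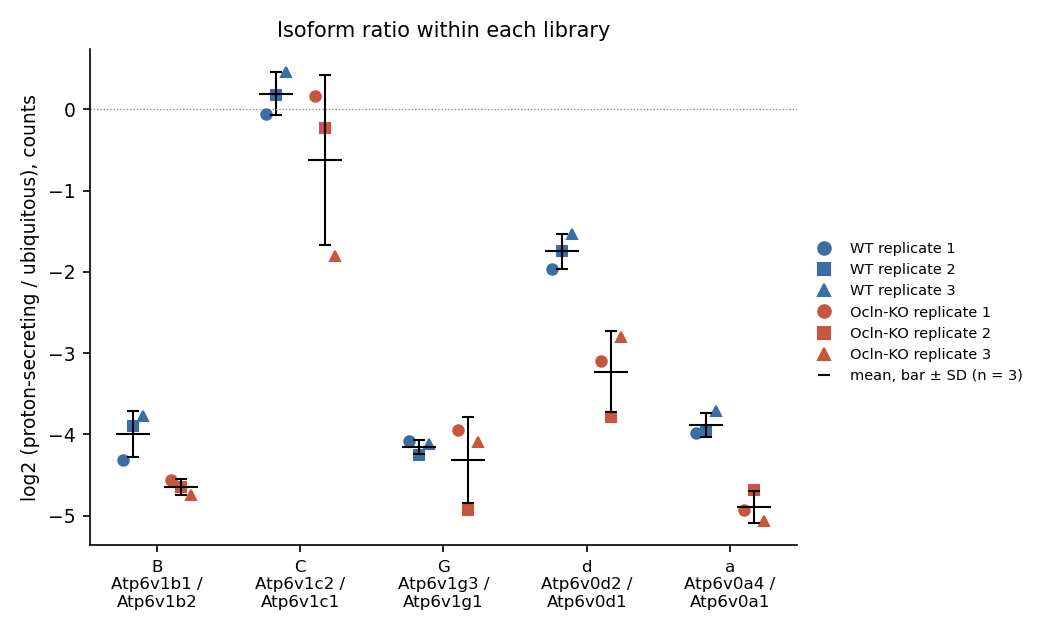
Log2 ratio of the counts of the proton-secreting-cell isoform to those of the ubiquitous isoform in each library, for the 5 subunits; points are libraries, and the horizontal lines and bars give the mean ± SD (n = 3). The Ocln-KO points lie under the WT points for B, d and a and mix with them for C and G, where Ocln-KO replicate 3 (C, -1.81) and Ocln-KO replicate 2 (G, -4.92) stand apart.

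Levels of different genes were compared as reads scaled to depth and to the length of the annotated exons (RPKM). In WT the order by mean level was Atp6v1g1 (189 ± 6.98 RPKM), Atp6v0d1 (43.0 ± 1.69 RPKM), Atp6v0a1 (34.8 ± 2.38 RPKM), Atp6v1b2 (28.9 ± 1.83 RPKM), Atp6v1c2 (27.4 ± 5.93 RPKM), Atp6v1c1 (9.19 ± 0.496 RPKM), Atp6v0d2 (8.56 ± 1.60 RPKM), Atp6v1g3 (6.41 ± 0.605 RPKM), Atp6v0a4 (3.12 ± 0.543 RPKM) and Atp6v1b1 (2.21 ± 0.417 RPKM), each as mean ± SD with n = 3. Among neighbours in this order, the libraries of Atp6v1b2 and Atp6v1c2 overlapped, as did those of Atp6v1c1 and Atp6v0d2. The ubiquitous isoform had the higher RPKM in 4 of the 5 subunits, by 29.5 times for G, 13.1 times for B, 11.1 times for a and 5.02 times for d in the WT means. Subunit C was the exception, with Atp6v1c1 at 0.335 times the level of Atp6v1c2, but Atp6v1c1 has 5601 bases of exons and 1146 coding bases, and per coding length the ratio was 0.988. In Ocln-KO the ratio of ubiquitous to proton-secreting-cell RPKM was 33.0 for G, 20.8 for B, 22.3 for a, 13.7 for d and 0.532 for C. Per coding length the ratio for C turned to 1.57 in Ocln-KO, so that which C isoform had the higher level depended on the length used, and the ratio was 17.8 in WT and 19.9 in Ocln-KO for G and 3.31 and 9.03 for d.

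As a share of the summed RPKM of a pair, the proton-secreting-cell isoform of subunit d was 16.5% ± 2.06 in WT and 6.79% ± 2.05 in Ocln-KO (SD, n = 3 each). For subunit a the share was 8.20% ± 0.802 in WT and 4.26% ± 0.554 in Ocln-KO, and for subunit B it was 7.11% ± 1.25 and 4.60% ± 0.289. For these 3 subunits the shares of the genotypes did not overlap, as the ratios above already show. The share of Atp6v1c2 was 74.5% ± 3.43 in WT and 61.8% ± 17.1 in Ocln-KO, with 42.3% in Ocln-KO replicate 3, and that of Atp6v1g3 was 3.27% ± 0.194 and 3.04% ± 0.967. The summed RPKM of both isoforms was 51.6 ± 3.24 in WT and 42.6 ± 3.62 in Ocln-KO for subunit d, and 196 ± 7.55 and 138 ± 23.4 for subunit G. In both cases every Ocln-KO library lay under every WT library. The sums overlapped for subunits B (29.0 to 32.6 in WT, 25.4 to 31.1 in Ocln-KO) and a (35.2 to 41.0 in WT, 25.7 to 36.7 in Ocln-KO). For subunit C, at 32.2 to 43.7 in WT and 16.01 to 30.2 in Ocln-KO, they did not.

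**Figure D3:**
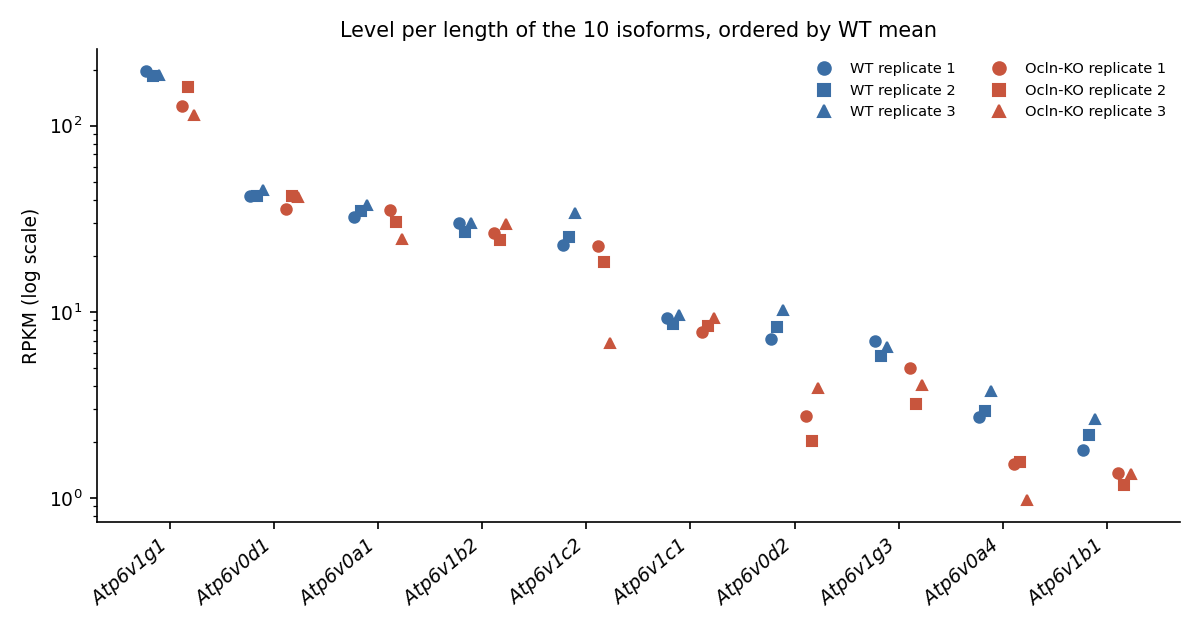
RPKM of the 10 isoforms in each library on a log axis, ordered by the WT mean, with 1 point per library. The 3 least abundant isoforms in WT, Atp6v1g3, Atp6v0a4 and Atp6v1b1, are all of the proton-secreting-cell side, and Atp6v1c2 stands among the ubiquitous isoforms in WT.

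The rest of the complex has 13 further subunit genes in the table, of which 11 were tested. In the edgeR fit 5 of the 11 were lower, as were 5.04% of all tested genes, and 1 was higher, as were 3.91%. The median log2 fold change of the 11 was -0.43. The 5 that fell were Atp6v1a, which encodes the catalytic subunit (log2 fold change -0.53, adjusted p = 0.0235), Atp6v0e (-0.62, adjusted p = 0.0146), Atp6v1f (-0.54, adjusted p = 0.0287), Atp6v0b (-0.47, adjusted p = 0.0376) and Atp6v1h (-0.43, adjusted p = 0.0316). These subunits have no proton-secreting-cell isoform paired here, and their log2 fold changes stand between the medians of the proton-secreting-cell and the ubiquitous isoforms. The 5 became 0, 1 and 0 without WT replicates 1, 2 and 3, and 3, 1 and 4 without Ocln-KO replicates 1, 2 and 3. In the same fits the count over all genes went from 992 to 19, 145 and 40, and to 875, 342 and 944. With scaling by total counts only the count was 3. The level of Atp6v1f is uncertain, as 25.1% of its transcript is at least 95% identical to another annotated gene, and exons of Atp6v0b overlap the antisense gene Gm12841 over 243 bases.

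The a subunit has further isoforms outside the pairs. Tcirg1, which encodes the a3 isoform of osteoclasts and other secretory lysosomes, was at 10.3, 9.88 and 9.45 CPM in WT and at 14.6, 15.3 and 19.7 CPM in Ocln-KO. It rose by 0.75 on the log2 scale (SE 0.15, adjusted p = 0.0314), with every Ocln-KO library above every WT library. Atp6v0a2, the a2 isoform, had a log2 fold change of -0.16 (adjusted p = 0.214), so that of the a isoforms a4 was called lower, a3 higher and a1 and a2 neither. Atp6v1e2, a testis isoform of subunit E, was at most 0.218 CPM in any library and was not tested, and Atp6v1g2, the G isoform of neurons, had 0 counts in each library, which allows at most 0.0942 CPM in a library by counting error alone. Of 14 genes for assembly factors and interacting proteins, 13 were tested, 2 were lower and 0 were higher (Oxr1 at an unadjusted p under 0.05, and 1 called by DESeq2), with a median log2 fold change of -0.08. Of all tested genes 5.04% were lower and 3.91% higher by edgeR. The 2 were Atp6ap1, an accessory subunit (-0.49, adjusted p = 0.0240), and Rogdi, a subunit of the assembly factor RAVE (-0.73, adjusted p = 0.0358).

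**Figure D4:**
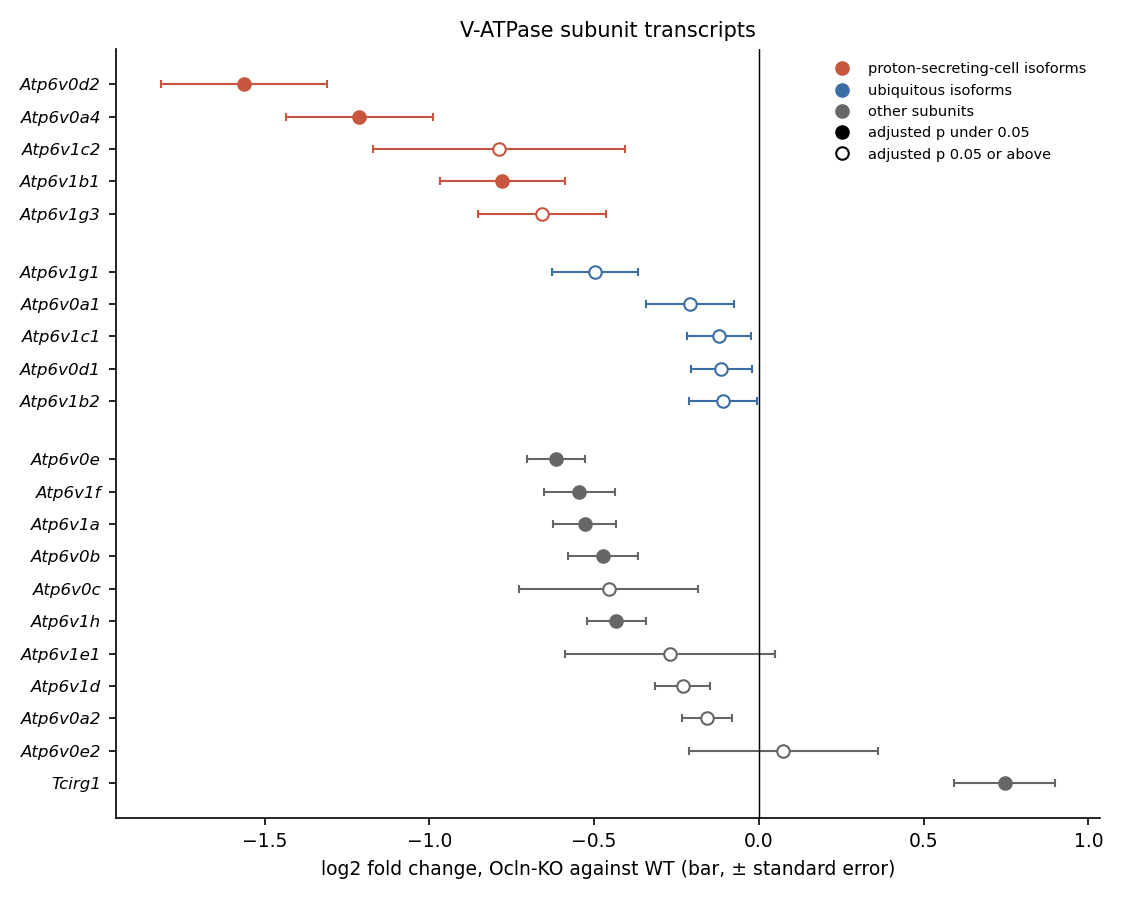
Log2 fold changes of V-ATPase subunit transcripts, Ocln-KO against WT, with ± standard error from edgeR; filled points had an adjusted p under 0.05. The proton-secreting-cell isoforms lie between -1.56 and -0.66, the ubiquitous isoforms between -0.50 and -0.11, and Tcirg1 at 0.75 is the point farthest above 0.

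Summed over the 5 genes, the proton-secreting-cell isoforms were at 104 to 144 CPM in WT and at 43.7 to 79.2 CPM in Ocln-KO, and the ubiquitous isoforms at 701 to 750 CPM in WT and 576 to 632 CPM in Ocln-KO. Atp6v1c2, which was not called, made up 49.9 to 74.2 CPM of the proton-secreting-cell sum in WT and 14.7 to 48.8 CPM in Ocln-KO. In whole tissue, fewer cells of a type and less RNA per cell cannot be told apart. Of 10 clear cell markers that are no V-ATPase genes, 8 were tested and 3 were lower (Foxi1, Dmrt2 and Bsnd, named after their values were seen), 0 were higher, and the median log2 fold change was -0.77. The shares of all tested genes called were 5.04% lower and 3.91% higher. Their summed level was 329 to 446 CPM in WT and 217 to 259.7 CPM in Ocln-KO, and Slc4a9 and Slc26a4 were at most 0.323 CPM in any library. Tfcp2l1 and Car2, the most abundant of these markers, were not called. Tfcp2l1 overlapped between genotypes (log2 fold change -0.14, adjusted p = 0.721) and was highest in Ocln-KO replicate 3 (200 CPM). In that library Car2 was at 5.89 CPM, against 46.4 and 62.7 CPM in Ocln-KO replicates 1 and 2 (-1.79, adjusted p = 0.127). Adcy10 was at -0.02. All 8 tested were below 0, 6 of them at an unadjusted p under 0.05. Of the 10 general epithelial markers 0 were lower (2 at an unadjusted p under 0.05, and 1 called by DESeq2), 2 were higher (Krt19 and Cldn4), and the median log2 fold change was -0.11. Their summed level was 2059 to 2357 CPM in WT and 1744 to 2240 CPM in Ocln-KO. The part of these marker levels in the results for the isoforms was not tested.

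Markers of other cell types were counted in the same way. Of all 19691 tested genes, edgeR called 5.04% lower and 3.91% higher. DESeq2 called 1708 lower and 1604 higher, and limma-voom 1050 lower and 729 higher. Of 12 macrophage and osteoclast markers, 11 were tested, 0 passed in either direction by edgeR or limma-voom and 3 were higher by DESeq2. At an unadjusted p under 0.05 edgeR had 6 of them higher and 0 lower, and the median log2 fold change was 0.56. Their summed level was 227 to 270 CPM in WT, against 269, 325 and 477 CPM in Ocln-KO replicates 1, 2 and 3, and the osteoclast marker Ocstamp was at most 0.0293 CPM. Ocln-KO replicate 3, with the highest sum, also had the highest Atp6v0d2 and Tcirg1 of the Ocln-KO libraries. Ocln-KO replicate 2 had a higher sum than replicate 1, with a lower Atp6v0d2 (5.46 against 7.51 CPM) and a higher Tcirg1 (15.3 against 14.6 CPM). In WT, Atp6v0d2 was at 19.3 to 27.9 CPM. A link of these markers with either transcript was not tested. Of 8 lymphocyte markers, 4 were tested and 1, Jchain, was higher. At an unadjusted p under 0.05 edgeR had all 4 higher, and their median log2 fold change was 1.28. The 8 markers summed to 3.26 to 4.04 CPM in WT and 9.16 to 15.2 CPM in Ocln-KO. Of the 9 principal cell markers tested, 1 was lower by edgeR (Aqp9), 3 by DESeq2 and 2 by limma-voom, with 3 at an unadjusted p under 0.05 by edgeR, and 0 were higher by any of the 3 tools. Their median log2 fold change was -0.11, and they summed to 30936 to 35659 CPM in WT and 21819 to 29932 CPM in Ocln-KO. Crisp1, the most abundant of them in WT, was at 12488 to 16769 CPM in WT and 4439 to 9957 CPM in Ocln-KO. It was not called (log2 fold change -0.92, adjusted p = 0.0855 by edgeR). Lcn5, Adam7 and Spink8, also abundant, overlapped between genotypes. Of the 7 basal cell markers, 0 were lower by any of the 3 tools and 1 was higher (Krt14), with 2 higher at an unadjusted p under 0.05 by edgeR. The basal cell markers had a median of 0.20 and sums of 252 to 271 CPM in WT and 261 to 307 CPM in Ocln-KO. Of the 8 spermatid and sperm transcripts 0 passed in either direction by any of the 3 tools, also at an unadjusted p under 0.05, and their sum was 396 to 475 CPM in WT, against 530, 532 and 167 CPM in Ocln-KO replicates 1, 2 and 3. The library with the lowest sum, Ocln-KO replicate 3, was also the lowest for Atp6v1c2, Atp6v0a4, Atp6v1g1 and Atp6v0a1, and its part in these results was not tested beyond the fits without it.

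The profile of the proton-secreting-cell isoforms over the 6 libraries, as the mean of their log2 CPM centred on each gene, was 0.35, 0.44 and 0.75 in WT and -0.27, -0.58 and -0.70 in Ocln-KO. The 5 other genes nearest to it, by the root mean square difference over the 6 libraries among 16358 genes at a mean of 1 CPM or more, were LOC102640772 (0.0877), Ccnd2 (0.0976), Cers4 (0.0983), Chchd10 (0.101) and Mvb12b (0.102). Ccnd2 encodes a cyclin, Cers4 a ceramide synthase, Chchd10 a mitochondrial protein and Mvb12b a subunit of the endosomal sorting complex ESCRT-I. The 5 proton-secreting-cell isoforms are part of the mean they are measured against, and the distance counts the size of a change as well as its shape. Atp6v0a4 (0.185), Atp6v1b1 (0.193) and Atp6v1g3 (0.273) ranked 97, 115 and 478 of the 16358 genes. Atp6v1c2 and Atp6v0d2 (0.438 each) ranked 3052 and 3062, farther from the mean than the ubiquitous isoforms Atp6v1g1 (0.350) and Atp6v0a1 (0.415). Many genes outside the complex were thus nearer to this mean than its own members. This likeness describes 6 libraries that share their genotype contrast.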

How the data were processed

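Per the methods of the study, RNA of whole epididymides went through rRNA depletion and a directional library kit, and all libraries were sequenced in a single lane. The authors cleaned the reads, mapped them to GRCm38 with HISAT2 (version 2.0.4 in the submitters' processing notes) and counted them per gene with HTSeq; the counting mode and strand setting are not given in the sources used here. The deposited value for a gene is its raw, unnormalized count in a library, and libraries held between 30646424 and 38870780 counts.

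The genotypes were compared with edgeR 4.0.16 in R 4.3.3 (filterByExpr, which kept 19691 of the 32046 genes with a count, TMM factors, glmQLFit and glmQLFTest, Benjamini-Hochberg adjustment over all genes tested, threshold 0.05). DESeq2 1.42.0, limma-voom (limma 3.58.1), other scalings and filters, a replicate block and each library left out in turn were alternatives. Standard errors (SE) were obtained by dividing the log2 fold change by the root of F. The log2 isoform ratio took counts plus 0.5, with a 95% interval from the pooled spread of 3 and 3 libraries and an exact two-sided permutation test (scipy 1.17.1). RPKM used the union of exons, and the longest transcript or coding length as alternatives, of GENCODE M21 for GRCm38, in place of the RefSeq exons first planned. Sequence shared with other genes was searched with blastn 2.17.0 (identity of at least 95% over at least 100 bases). Gene coordinates and promoters are from RefSeq. The fits were tested on simulated counts with known changes.

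The 10 isoforms, the lists and the tests were chosen with earlier results of these data known. All 10 are named, with the subunit and assembly genes that passed the test, Atp6v1a, Atp6v1e2, Atp6v0a2, Tcirg1, Ocln, and the 5 other genes nearest in profile; other list genes are given as sums and counts. Atp6v1g2, Oxr1, the markers called lower or higher, Car2, Tfcp2l1, Adcy10, Crisp1, Lcn5, Adam7, Spink8 and the markers near 0 were named after their values were seen. Some markers of the lists are not reported here, and the lists are counted without them. The proteomes were not analysed here.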

Additional observations from a re-analysis of the deposited data

How the results depend on the processing

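All 10 isoform transcripts had a log2 fold change below 0 under each of the 14 alternatives, and of the 140 values 117 stayed on the same side of the adjusted p threshold, 17 lost a call and 6 gained one. Scaling by total counts only moved the median over all tested genes from 0.01 to 0.09 on the log2 scale. DESeq2 called 5 isoforms lower in place of 3, of which 4 were of the proton-secreting-cell side, and 1708 genes lower in all in place of 992. For the ubiquitous isoforms DESeq2, limma-voom and no filter on low counts each called 1 in place of 0. With total counts only, 3 of the other subunits were called lower in place of 5. With each library left out, the count of isoforms called lower ran from 0 to 3, that of the proton-secreting-cell isoforms from 0 to 3, that of the ubiquitous isoforms from 0 to 1, that of the other subunits from 0 to 4 and that of all genes from 19 to 944, lowest without WT replicate 1. The difference of the log2 isoform ratio ran from -0.81 to -0.54 for B, -1.21 to -0.22 for C, -0.35 to 0.14 for G, -1.69 to -1.20 for d and -1.11 to -0.92 for a. It changed sign once, to 0.14 for G without Ocln-KO replicate 2; the cause was not tested. Pseudocounts of 0 or 5 kept each ratio, and other gene lengths kept the WT level of the ubiquitous isoform above its counterpart for B, G, d and a, while for C the order in Ocln-KO turned with coding length (0.532 to 1.57).

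Replicate numbers are shared by the genotypes, and the methods speak of 3 pairs of mice without saying what a pair shares or that the numbers mark the pairs. Same-numbered libraries had deviations with correlations of -0.05, -0.03 and -0.01, so no pairing was visible in the data, and the libraries were compared as unpaired. With a replicate block, 0 isoforms (5 at an unadjusted p under 0.05), 0 other subunits and 31 genes in all were called lower, in a fit with fewer residual degrees of freedom; the adjusted p was 0.0585 for Atp6v0d2, 0.0930 for Atp6v0a4 and 0.114 for Atp6v1b1. Paired within numbers, the ratio differences were -0.65 for B, -0.81 for C, -0.17 for G, -1.48 for d and -1.01 for a. The exact sign-flip permutation p was 0.25 for B, d and a, the smallest that 3 pairs of libraries allow. It was 0.5 for C and larger still for G.

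Each isoform had at least 163 counts in each library.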
